A study of Daphnia magna with 12 samples.

Results

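The comparison described here sets 3 libraries of Daphnia magna exposed to C2mimCl (1-ethyl-3-methylimidazolium chloride) against 3 control libraries, 6 of the 12 libraries in the series. They were chosen by their labelled treatment, not by any measured value. The C2mimCl animals were held for 48 h at the salt's EC20, the concentration that gives 20% of a measured effect, and the control animals were held in blank ASTM medium. All were third-brood neonates from the same bulk cultures, under 10 h old at the start and unfed throughout. Each library came from 1 vessel and pooled the whole bodies of 90 animals that were still active at the end. The endpoint behind the EC20 and the molar concentration were not among the information used here, and the values describe animals that remained active. In such pools, fewer cells of a type and less RNA per cell cannot be told apart. The other 6 libraries, exposed to C12mimCl (the dodecyl analogue) or CholCl (cholinium chloride) at their own EC20, shared the estimate of spread and are set beside C2mimCl for the genes named.

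C2mimCl is an ionic liquid, a salt of an organic cation that melts at a low temperature and dissolves readily in water. Its cation is a methylimidazolium ring with an ethyl chain. In aquatic toxicity tests imidazolium salts with short chains are generally less toxic than those with long chains, which insert into membranes more readily. Daphnia magna is a freshwater crustacean that reproduces clonally, grows by repeated moults and is a standard test animal. The files identify each gene by number only, and no identifier was found in the gene table given for the species. Genes are therefore described by identifier, level and response, with no function and no sequence.

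Between 12502019 and 15409131 reads fell in genes in each of the 6 libraries, and 19493 to 20632 genes had at least 1 read. Levels are given as CPM, gene counts scaled to library size with TMM factors, which is not corrected for gene length and so compares libraries and not genes. C2mimCl replicate 1 stood apart from its group. Over the 12760 genes whose mean CPM was 2 or more, its root-mean-square difference in log2 CPM was 1.20 from replicate 2 and 1.10 from replicate 3. It was 0.82 from control replicate 1, 0.80 from control replicate 2 and 1.11 from control replicate 3. Replicate 1 was thus nearer to 2 of the controls than to its own group, while C2mimCl replicates 2 and 3 differed by only 0.36.

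The controls were not uniform either. Control replicates 1 and 2 differed by 0.36, but control replicate 3 lay 0.57 and 0.62 from them. In a principal component analysis of the 6 libraries, the first component held 57.1% of the variance. It placed C2mimCl replicates 1, 2 and 3 at -69.7, 61.1 and 48.3, and control replicates 1, 2 and 3 at -21.0, -33.5 and 14.9. The groups overlapped on this component. The second component held 29.4% and placed the C2mimCl libraries at -47.7, -26.3 and -19.9, all below the controls at 22.1, 28.3 and 43.5. The share of reads assigned to no gene was highest in the 3 libraries lowest on the first component, at 7.61%, 5.84% and 6.14% in C2mimCl replicates 1, 2 and 3 and 7.87%, 8.39% and 6.32% in control replicates 1, 2 and 3. With that share as a covariate, 627 genes were called instead of 227.

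**Figure D1:**
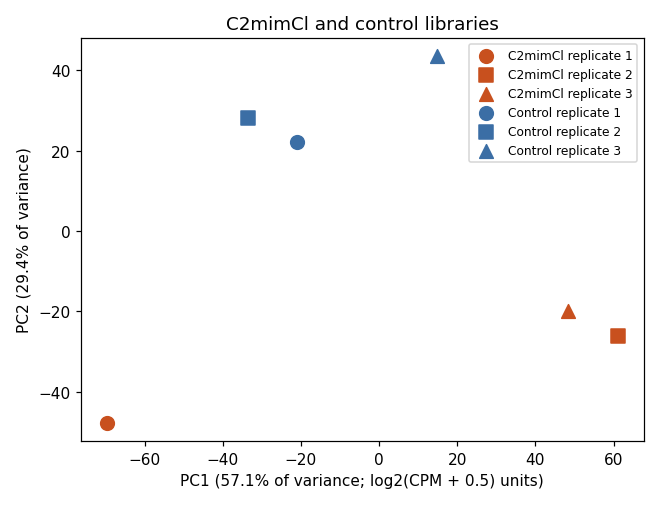
First and second principal components of log2(CPM + 0.5) for the 3 C2mimCl libraries (orange) and the 3 control libraries (blue), each point 1 library and each marker shape a replicate number. C2mimCl replicate 1 lies at the far left at -69.7 on the first component, on the other side of the controls from C2mimCl replicates 2 and 3 at 61.1 and 48.3.

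The comparison asks which transcripts differ after C2mimCl. With all 3 C2mimCl libraries, 227 of 15847 genes (1.43%) passed edgeR's quasi-likelihood test with a Benjamini-Hochberg adjusted p under 0.05 and are called below. Of these, 123 were higher (0.776%) and 104 lower (0.656%) than in controls. Without replicate 1, 2459 genes (15.5%) were called, of which 930 were higher (5.87%) and 1529 lower (9.65%). The excess of falls among these calls turned without control replicate 3, with 2104 higher and 1890 lower. All of the 227 genes were among the 2459. Those 2459 genes were divided by where replicate 1 lay, in CPM, relative to the 3 controls. Where all 3 C2mimCl libraries lay beyond the controls, genes were divided again by whether the fit with replicate 1 called them.

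In the first list, 227 genes changed in all 3 C2mimCl libraries, since each C2mimCl library lay beyond each control. Non-overlap alone was common, as it held for 2860 genes (18%) without any test. In the second list, 834 genes also had all 3 C2mimCl libraries beyond the controls but were called only when replicate 1 was left out, 295 of them higher and 539 lower. In the third list, 1398 genes changed in replicates 2 and 3 only, 512 of them higher and 886 lower, with replicate 1 inside the control range or past it on the other side. Of the calls made without replicate 1, the third list held 56.9% and the first 9.23%. The third list was the smaller part in some settings, with 802 of 1784 calls without control replicate 1, 711 of 1555 without control replicate 2, 488 of 1342 with the share of reads in no gene as a covariate and 94 of 247 against a 2-fold threshold.

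The sizes of these lists rested on single libraries. The first list held 34, 23 and 90 genes without control replicates 1, 2 and 3, and 82 and 79 genes were called without C2mimCl replicates 2 and 3. The second list held 948 higher and 927 lower genes without control replicate 3, and the third 1109 higher and 920 lower. Falls were 45.8% of the first list and 64.6% of the second under TMM, and 35.8% and 53.6% under upper-quartile factors.

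**Figure D2:**
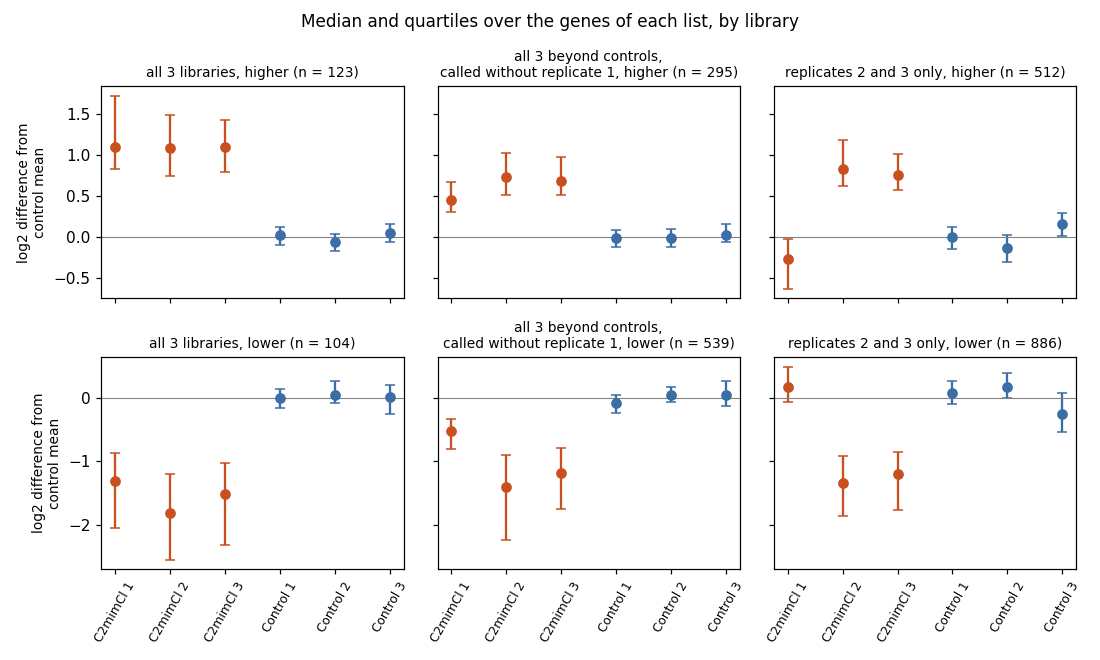
Median (point) and quartiles (bars) of the log2 difference from the control mean, on log2(CPM + 0.5), over the genes of each list, for the 3 C2mimCl libraries (orange) and the 3 control libraries (blue), with n the number of genes. C2mimCl replicate 1 lies close to replicates 2 and 3 among the higher genes of the first list (1.10, 1.09 and 1.09), falls short of them in the second, and lies at -0.27 against 0.83 and 0.76 among the higher genes of the third. In each list the place of replicate 1 is partly fixed by the choice of genes.

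At the median, the higher genes of the first list moved by similar amounts in the 3 C2mimCl libraries, and the lower genes somewhat less in replicate 1. A call with all 3 libraries favours genes in which the 3 are alike. The closeness of replicate 1 to its group thus follows in part from the choice of genes. Among the 123 higher genes the median log2 difference from the control mean was 1.10, 1.09 and 1.09 in C2mimCl replicates 1, 2 and 3, and 0.03, -0.06 and 0.04 in control replicates 1, 2 and 3. Among the 104 lower genes it was -1.31, -1.81 and -1.51 in the C2mimCl libraries, and 0.00, 0.05 and 0.01 in the controls. The median fold was 2.25 for higher genes and 3.16 for lower genes, and the median of the lower genes did not change with the 4 genes of 3 or fewer C2mimCl reads set at their bound. Over all genes tested the median log2 fold change was 0.01. Replicate 1 lay farther from the controls than both other C2mimCl libraries in 65 of the 123 higher genes and in 24 of the 104 lower genes. It lay nearer to the controls than both in 41 of the higher and 61 of the lower genes. The higher genes together took 1.73%, 1.07% and 1.18% of gene reads in C2mimCl replicates 1, 2 and 3, against 0.626%, 0.626% and 0.586% in the controls. The lower genes took 0.550%, 0.332% and 0.402% in C2mimCl libraries and 1.20%, 1.27% and 1.13% in controls.

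Within the first list, 19 genes were called in the same direction in the fit of all libraries and in each of 6 fits that left out 1 C2mimCl or control library. Of these, 10 were higher and 9 lower, and they are given one by one because no single library decided their call. With only the 6 libraries compared, 3 genes in all were called, Dapma7bEVm013021, Dapma7bEVm007094 and Dapma7bEVm006685, and the other 16 lost the call. In the 9 other settings with all C2mimCl and control libraries and no fold threshold, all 19 remained called.

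The rise of Dapma7bEVm006685 had the smallest p among the 10 higher genes. It had 69.9, 62.8 and 57.7 CPM in the C2mimCl libraries, against 7.74, 5.18 and 7.11 CPM in controls, so that the lowest exposed library was several times above the highest control. The log2 difference was 3.25 ± 0.24 (SE, edgeR quasi-likelihood, adjusted p = 0.00031). Dapma7bEVm011408 had 43.0, 38.2 and 39.1 CPM in C2mimCl libraries and 6.89, 2.69 and 6.56 CPM in controls, a log2 difference of 2.90 ± 0.28 (SE, edgeR, adjusted p = 0.0021). These were the 2 steepest rises of the 10, and the 3 C2mimCl vessels were close together in both.

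Dapma7bEVm002006 varied more between exposed vessels, with 21.9, 8.997 and 15.5 CPM after C2mimCl and 2.32, 1.77 and 2.61 CPM in controls. On the log2 scale it changed by 2.79 ± 0.34 (SE, edgeR quasi-likelihood, adjusted p = 0.0066). Dapma7bEVm011894 had 94.2, 77.0 and 115 CPM after C2mimCl and 24.3, 19.9 and 17.7 CPM in controls, a log2 difference of 2.21 ± 0.24 (SE, edgeR, adjusted p = 0.0041). Replicate 1 lay between the other C2mimCl libraries for this gene. Dapma7bEVm016279 was the least read of the higher genes, with 45, 42 and 39 reads in C2mimCl libraries and 10, 8 and 9 reads in controls. In log2 units this was a difference of 2.34 ± 0.27 (SE, edgeR, adjusted p = 0.0058).

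The other 5 higher genes rose by 1.98-fold to 3.24-fold with separate groups. Dapma7bEVm007629 had 537, 351 and 378 CPM after C2mimCl and 138, 111 and 141 CPM in controls, a log2 difference of 1.70 ± 0.20 (SE, edgeR quasi-likelihood, adjusted p = 0.0061). Dapma7bEVm010966 had 15.4, 13.6 and 15.9 CPM after C2mimCl and 4.02, 3.87 and 6.08 CPM in controls, a log2 difference of 1.69 ± 0.21 (SE, edgeR, adjusted p = 0.0066). In both genes the groups were separated by at least 2-fold between their nearest libraries. Dapma7bEVm007513 had 73.1, 64.2 and 64.7 CPM after C2mimCl, against 26.2, 26.5 and 31.1 CPM in controls. Dapma7bEVm013027 had 13.1, 11.7 and 14.0 CPM after C2mimCl, against 5.36, 5.64 and 6.64 CPM in controls. Dapma7bEVm024363 showed the tightest exposed group of all, with 36.8, 38.5 and 37.9 CPM against 19.4, 16.7 and 21.1 CPM in controls. The log2 fold changes of these last 3 were 1.27, 1.14 and 0.99 with SE 0.12, 0.14 and 0.11 (edgeR, adjusted p = 0.0021, 0.0066 and 0.0058).

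Among the 9 lower genes, Dapma7bEVm013021 shared the smallest adjusted p with Dapma7bEVm007094. It had 2.29, 1.65 and 1.60 CPM after C2mimCl, against 26.7, 26.4 and 20.7 CPM in controls, and replicate 1 was close to the other exposed libraries. The log2 difference was -3.72 with an SE of 0.23 (edgeR quasi-likelihood, adjusted p = 8.8e-05). Dapma7bEVm004192 had 2.29, 4.79 and 4.54 CPM after C2mimCl, against 135, 201 and 79.5 CPM in controls. The log2 difference was -5.17 ± 0.48 (SE, edgeR quasi-likelihood, adjusted p = 0.0021), and here replicate 1 was the lowest of the exposed libraries. Dapma7bEVm002384 had 3.37, 2.56 and 2.86 CPM after C2mimCl, against 13.7, 13.2 and 12.1 CPM in controls, a log2 difference of -2.14 ± 0.22 (SE, edgeR, adjusted p = 0.0031).

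Dapma7bEVm005958 had 2.53, 2.97 and 2.35 CPM after C2mimCl, against 18.7, 15.01 and 9.96 CPM in controls, a log2 difference of -2.47 ± 0.28 (SE, edgeR quasi-likelihood, adjusted p = 0.0058). Dapma7bEVm024600 had 0.722, 0.990 and 1.77 CPM after C2mimCl, against 6.83, 6.95 and 6.72 CPM in controls, a log2 difference of -2.58 ± 0.32 (SE, edgeR, adjusted p = 0.0066). Dapma7bEVm028255 had 10.3, 12.6 and 14.3 CPM after C2mimCl, against 25.7, 29.2 and 31.7 CPM in controls, a log2 difference of -1.22 ± 0.15 (SE, edgeR, adjusted p = 0.0066). Replicate 1 was the lowest exposed library in the last 2 of these and lay between the others in the first, so none of them rested on replicates 2 and 3.

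The remaining 3 lower genes were almost unread after C2mimCl. Dapma7bEVm018305 had 1, 1 and 3 reads in the C2mimCl libraries, against 75, 62 and 27 reads in controls, a log2 difference of -4.76 ± 0.56 (SE, edgeR quasi-likelihood, adjusted p = 0.0061). Dapma7bEVm019058 had 0, 0 and 1 reads after C2mimCl, against 82, 76 and 28 in controls, so that controls were 170.5-fold higher after scaling for depth, with a 95% counting interval of 30.2 to 6770. Dapma7bEVm007094 had 1 read in each exposed library, against 198, 189 and 118 in controls, which were 154-fold higher with a 95% counting interval of 52.5 to 751. With so few reads the fold is loosely bounded, although each vessel showed the loss. A further gene, Dapma7bEVm024815, was not among the genes called in every fit, and no test result is given for it. It also had at most 3 reads over the 3 C2mimCl libraries and at least 10 in each control, with 0, 1 and 0 against 17, 52 and 10. It is named because only 3 genes met that description. No gene met the reverse one (0 genes), with at most 3 reads over the controls and 10 or more in each C2mimCl library.

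**Figure D3:**
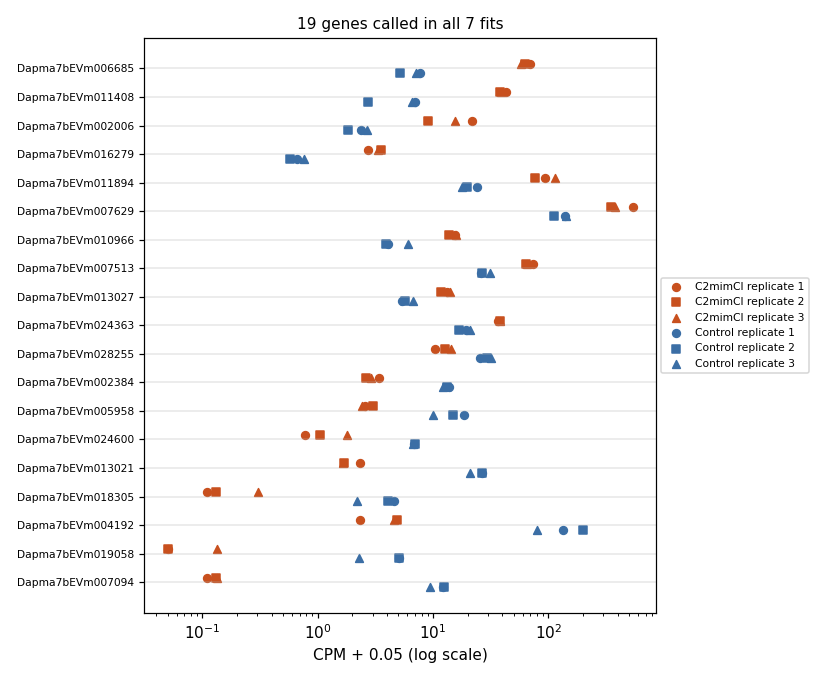
CPM plus 0.05 on a log axis for the 19 genes called in all 7 fits, ordered by log2 fold change, with each C2mimCl library in orange (upper of each pair of rows) and each control library in blue, and marker shape giving the replicate number. In every gene shown the 3 orange points, C2mimCl replicate 1 (circles) among them, lie on one side of the 3 blue points. This separation is fixed by the choice of genes.

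These 19 genes were then compared between C2mimCl and the other salts, each at its EC20 and 48 h. Because they were chosen on the C2mimCl libraries, which enter these tests too, the counts are descriptive. C2mimCl differed from C12mimCl, which carries a dodecyl in place of the ethyl chain, in 14 of the 19, where 45.1% of all genes differed. It differed from CholCl in 11 of the 19, where 29.2% of all genes differed, and 9 genes differed from both salts (edgeR quasi-likelihood, adjusted p below 0.05 over all genes tested). Against the shared controls, 15 of the 19 were called in the same direction after CholCl and 5 after C12mimCl. Calls in the opposite direction were made after C12mimCl in Dapma7bEVm007094, Dapma7bEVm004192, Dapma7bEVm011408, Dapma7bEVm011894, Dapma7bEVm024600 and Dapma7bEVm028255. After CholCl they were made in Dapma7bEVm011894 and Dapma7bEVm018305. For the counts of 15 and 5 no share over all genes is given here. Without that share they show nothing particular to these genes. Some differences from CholCl were of size only, as in Dapma7bEVm006685, with means of 63.5 CPM after C2mimCl and 118 CPM after CholCl.

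Dapma7bEVm011894 was furthest from both among the higher genes. It had 94.2, 77.0 and 115 CPM after C2mimCl, against 2.59, 1.98 and 2.45 CPM after C12mimCl and 8.93, 6.45 and 12.1 CPM after CholCl. The log2 difference was 5.34 from C12mimCl (SE 0.28, edgeR quasi-likelihood, adjusted p = 8.1e-06) and 3.38 from CholCl (SE 0.25, adjusted p = 7.1e-05). Against controls the gene fell after each of those salts, by 3.13 on the log2 scale after C12mimCl (edgeR, adjusted p = 7.9e-05) and by 1.17 after CholCl (adjusted p = 0.0043), whereas it rose after C2mimCl. Dapma7bEVm002006 and Dapma7bEVm007513 also exceeded both salts. Dapma7bEVm007629 did so by 1.99 (SE 0.20) and 0.80 (SE 0.19) on the log2 scale. For Dapma7bEVm002006 the log2 difference was 2.06 from C12mimCl (SE 0.32) and 2.30 from CholCl (SE 0.33), and for Dapma7bEVm007513 it was 1.48 (SE 0.12) and 0.95 (SE 0.12), with adjusted p between 4.0e-05 and 0.0011 by edgeR quasi-likelihood.

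Dapma7bEVm018305 showed another pattern. It had 0.0602, 0.0825 and 0.252 CPM after C2mimCl and 0.0633, 0 and 0 CPM after C12mimCl, against 7.66, 12.7 and 13.4 CPM after CholCl, which exceeded the controls at 4.57, 4.06 and 2.13 CPM. The log2 difference of C2mimCl from CholCl was -6.40 with SE 0.55 (edgeR quasi-likelihood, adjusted p = 0.00012). With 5 reads over the C2mimCl libraries and 1 over the C12mimCl libraries, a difference between the imidazolium salts was not detectable at this depth. Dapma7bEVm004192 was spread over the salts instead, at 2.29 to 4.79 CPM after C2mimCl, 295 to 589 CPM after C12mimCl and 0.150 to 0.347 CPM after CholCl. C2mimCl thus lay below C12mimCl by 6.68 and above CholCl by 3.91 on the log2 scale (SE 0.51 and 0.56, edgeR, adjusted p = 3.2e-05 and 0.0012).

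For 3 genes no difference between salts was detected in either test. Dapma7bEVm013027 had intervals within 2-fold, with a log2 difference of 0.26 from C12mimCl (95% interval -0.05 to 0.56) and 0.19 from CholCl (-0.11 to 0.49). For Dapma7bEVm016279 the intervals were -0.06 to 1.00 from C12mimCl and -0.16 to 0.90 from CholCl. Dapma7bEVm019058 had 1 read in all over the C2mimCl libraries, 11 over the C12mimCl libraries and 4 over the CholCl libraries, too few to compare.

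The largest rises of the first list, by contrast, leaned on C2mimCl replicate 1. Of those with a mean CPM of 2 or more, Dapma7bEVm002925 had 120, 24.1 and 24.0 CPM in C2mimCl replicates 1, 2 and 3, against 1.95, 1.64 and 1.74 CPM in controls. On the log2 scale it changed by 4.98 ± 0.91 (SE, edgeR quasi-likelihood, adjusted p = 0.031), and 3.75 with SE 0.69 without replicate 1 (adjusted p = 0.0090). Dapma7bEVm018634 had 1507, 234 and 293 CPM after C2mimCl, against 59.97, 71.5 and 37.7 CPM in controls. Its log2 fold change of 3.59 (SE 0.71, edgeR, adjusted p = 0.041) became 2.22 (SE 0.37, adjusted p = 0.0057) without replicate 1. Dapma7bEVm004588 followed the same order, with 326, 39.0 and 46.1 CPM after C2mimCl and 2.05 to 4.65 CPM in controls. In these 3 genes replicate 1 was several times above its group, so the direction held in every vessel while the size did not.

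Dapma7bEVm029490 was the exception among the 4 largest rises, with replicate 1 the lowest of its group. It had 22.1, 58.3 and 31.5 CPM after C2mimCl, against 2.07, 2.10 and 3.00 CPM in controls. Each of these 4 genes lost its call without control replicate 1, 2 or 3 (log2 fold changes 3.37 to 5.47), and Dapma7bEVm029490 also without C2mimCl replicate 2 (3.49) or 3 (4.10). None of them was called with only the 6 libraries compared, against a 2-fold threshold or without the filter on low counts, and limma-voom did not call Dapma7bEVm004588 or Dapma7bEVm002925. Among the largest falls, Dapma7bEVm023384 had 10.95, 1.49 and 2.10 CPM after C2mimCl, against 241, 261 and 124 CPM in controls, a log2 difference of -5.40 ± 0.74 (SE, edgeR quasi-likelihood, adjusted p = 0.014). Its call was lost without control replicate 2, where the log2 fold change was -5.21, and with only the 6 libraries compared. Dapma7bEVm011534 had 3, 0 and 2 reads after C2mimCl, against 105, 131 and 25 in controls (edgeR, adjusted p = 0.022). Its call was lost without control replicate 1 or 2 and without C2mimCl replicate 2 or 3. It was also lost with limma-voom, with only the 6 libraries compared and against a 2-fold threshold.

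In the second list replicate 1 moved in the same direction as its group, as the definition requires, but less far. The shortfall follows largely from the choice of genes that were called only without it, so its values are a description. Its median log2 difference from the control mean among the 295 higher genes was 0.45, against 0.73 and 0.68 in replicates 2 and 3. Among the 539 lower genes it was -0.52, against -1.39 and -1.18. As a share of the mean change in replicates 2 and 3, the median gene reached 61.3% in replicate 1 among higher genes and 38.0% among lower genes. Replicate 1 was nearer to the controls than both others in 208 of the 295 and 477 of the 539.

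The third list is described from the fit without replicate 1, and the place of replicate 1 in it was fixed by the choice of genes. Among the 512 higher genes the median log2 difference from the control mean was -0.27 in replicate 1, 0.83 in replicate 2 and 0.76 in replicate 3. It was 0.00, -0.13 and 0.16 in control replicates 1, 2 and 3. Among the 886 lower genes it was 0.17, -1.33 and -1.20 in the C2mimCl libraries and 0.07, 0.17 and -0.25 in the controls. Control replicate 3 was thus shifted toward C2mimCl replicates 2 and 3 in both directions, and replicate 1 and control replicate 2 away from them. Replicate 1 lay inside the control range for 234 of the higher and 506 of the lower genes. It lay past the controls on the other side for the remaining 278 and 380.

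Falls in the third list were larger than rises, with a median fold of 3.08 against 1.78, or 3.03 for the falls with the 42 genes of 3 or fewer reads set at their bound. Of the 886 lower genes, 122 fell by at least 8-fold, against 1 of the 512 higher genes. The lower genes together took 5.85% of gene reads in replicate 1, 1.29% in replicate 2 and 1.51% in replicate 3, against 5.32%, 5.81% and 3.43% in control replicates 1, 2 and 3. This list held more of the transcript pool than the first, and its level in replicate 1 was that of control replicates 1 and 2.

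The 5 largest rises of the third list, where the mean over the 6 libraries reached 2 CPM, were 5.11-fold to 6.07-fold without replicate 1. Dapma7bEVm002308 had 253 and 346 CPM in replicates 2 and 3 and 40.5 CPM in replicate 1, against 53.2, 35.5 and 59.3 CPM in controls. Without replicate 1 the log2 fold change was 2.60 with SE 0.34 (edgeR quasi-likelihood, adjusted p = 0.002). Dapma7bEVm009513 had 57.1 and 54.2 CPM in replicates 2 and 3 and 6.68 CPM in replicate 1, against 10.97, 4.52 and 12.3 CPM in controls (log2 fold change 2.59, SE 0.36, adjusted p = 0.0024 in edgeR). In both genes replicate 1 lay among the controls.

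In 2 of the rises replicate 1 was instead far below the controls. Dapma7bEVm006468 had 80.7 and 49.4 CPM in replicates 2 and 3 but 1.14 CPM in replicate 1, against 9.20, 10.8 and 17.9 CPM in controls. Dapma7bEVm011944 had 95 and 93 reads in replicates 2 and 3 but 2 in replicate 1, against 17, 19 and 30 reads in controls. The fifth, Dapma7bEVm010100, had 17.5 and 14.0 CPM in replicates 2 and 3, against 2.26, 1.38 and 5.06 CPM in controls, with replicate 1 at 1.63 CPM inside the control range. Dapma7bEVm006468 lost its call without control replicate 1 or 2 and with DESeq2, and it, Dapma7bEVm010100 and Dapma7bEVm011944 lost theirs with the share of reads in no gene as a covariate. Dapma7bEVm006468 was also not called without the filter on low counts. Against a 2-fold threshold Dapma7bEVm006468, Dapma7bEVm010100 and Dapma7bEVm011944 were not called. The 5 genes had 0 to 2.85 CPM in each C12mimCl library and 0 to 9.64 CPM in each CholCl library, so the high level was seen in C2mimCl replicates 2 and 3 and in none of those 6.

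The 5 largest falls of the third list had at most 8 reads in replicates 2 and 3 each. Dapma7bEVm011828 had 0 reads in both, which with a floor of 3 reads over the pair is at least 33.8-fold lower than the controls, while replicate 1 had 30 reads and the controls 101, 73 and 13. Dapma7bEVm011174 had 1 read in each of replicates 2 and 3 and 187 in replicate 1, against 352, 392 and 70 reads in controls. Controls were thus 220.5-fold above replicates 2 and 3, with a 95% counting interval of 60.9 to 1824. Dapma7bEVm011173 had 3 and 0 reads in replicates 2 and 3 and 106 in replicate 1, against 188, 197 and 45 in controls.

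In these falls replicate 1 and control replicate 3 were alike in lying below control replicates 1 and 2. The same order held for Dapma7bEVm005157, with 0.660 and 0.420 CPM in replicates 2 and 3 and 10.6 CPM in replicate 1, against 33.2, 36.9 and 10.4 CPM in controls. Without replicate 1 the log2 fold change was -5.61 with SE 0.77 (edgeR quasi-likelihood, adjusted p = 0.0029). Dapma7bEVm015053 had 0.413 and 0.0840 CPM in replicates 2 and 3 and 4.94 CPM in replicate 1, against 9.26, 19.6 and 1.66 CPM in controls. The 5 falls were called with edgeR, DESeq2 and limma-voom with quality weights, but not with limma-voom without those weights. Against a 2-fold threshold Dapma7bEVm011828 and Dapma7bEVm015053 were not called. Dapma7bEVm015053 also lost its call with that covariate (-3.93 on the log2 scale) and in the fit without the other salts. Dapma7bEVm011828 also lost its call without control replicate 1 or 2 and without the filter on low counts. Counting all genes tested, and the 3 given above, 29 had at most 3 reads over replicates 2 and 3 and at least 10 in each control.

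**Figure D4:**
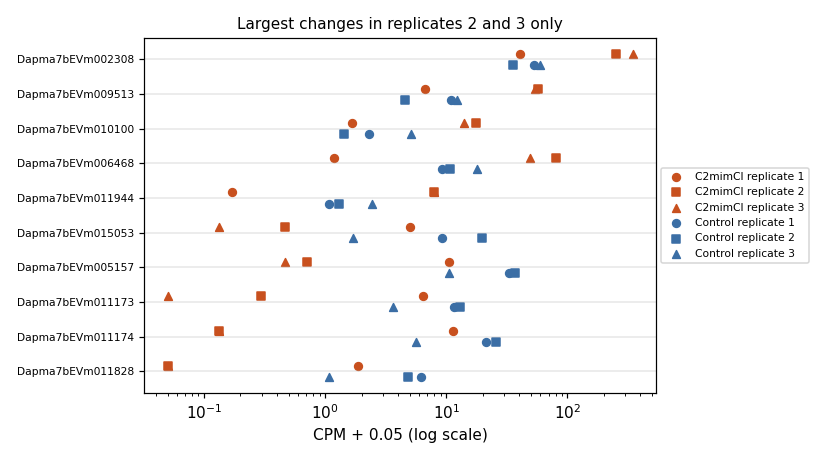
CPM plus 0.05 on a log axis for the 5 largest rises and 5 largest falls seen in C2mimCl replicates 2 and 3 only, with C2mimCl libraries in orange (upper of each pair of rows), control libraries in blue, and marker shape giving the replicate number. The orange circle, C2mimCl replicate 1, lies among or below the blue points in the rises, at 1.14 CPM in Dapma7bEVm006468, and among them in the falls.

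Replicate 1 also carried changes of its own. It was at least 4-fold below each of the other 5 libraries in 191 genes and at least 4-fold above each in 27, out of 12760 genes. No other library was so often alone, since C2mimCl replicate 2 was 4-fold below the rest in 15 genes and 4-fold above in 0, and each of the remaining 4 libraries was apart in 0 to 3 genes. With 1 library there is no test of these genes. The 191 low genes had a median of 1.99 CPM in replicate 1, against 72.7 and 44.7 CPM in replicates 2 and 3 and 29.8, 27.7 and 71.7 CPM in controls. Of them, 176 belonged to none of the 3 lists and 14 to the higher genes of the third.

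The 191 genes were also low after the other salts, with a median of 4.75, 2.89 and 15.5 CPM in the C12mimCl libraries and 2.33, 1.74 and 8.12 CPM in the CholCl libraries. The distance of replicate 1 from the other C2mimCl and control libraries was fixed by the choice of genes. The C12mimCl and CholCl libraries took no part in that choice. It did hold the controls and C2mimCl replicates 2 and 3 high, at least 4-fold above replicate 1. The gap between the other salts and the controls was thus also set in part by the choice. Over all genes tested, the median was 8.74 to 10.6 CPM in the libraries of the other salts and 11.8 to 12.2 CPM in controls. Whether replicate 1 resembles the other salts was not tested. The genes farthest below were Dapma7bEVm027945, Dapma7bEVm001857 and Dapma7bEVm009922. Dapma7bEVm027945 had 31 reads in replicate 1, against 7200 and 5451 in replicates 2 and 3 and 2836, 2914 and 3668 in controls. Its level after C12mimCl was 0.253, 0.152 and 0.536 CPM, below the 1.87 CPM of replicate 1. Dapma7bEVm001857 had 33 reads in replicate 1, against 1814 and 1879 in replicates 2 and 3 and 3529, 4483 and 7257 in controls. For this gene the C12mimCl libraries were not low, at 208, 131 and 582 CPM, so the genes low in replicate 1 were not uniformly low after that salt. After CholCl the same gene had 2.48, 2.98 and 98.5 CPM, against 1.99 CPM in replicate 1. Dapma7bEVm009922 had 13 reads in replicate 1, against 919 and 805 in replicates 2 and 3 and 1764 to 3611 in controls. It had 0.78 CPM in replicate 1, against 62.4, 37.1 and 201 CPM after C12mimCl and 0.675, 1.665 and 28.4 CPM after CholCl.

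**Figure D5:**
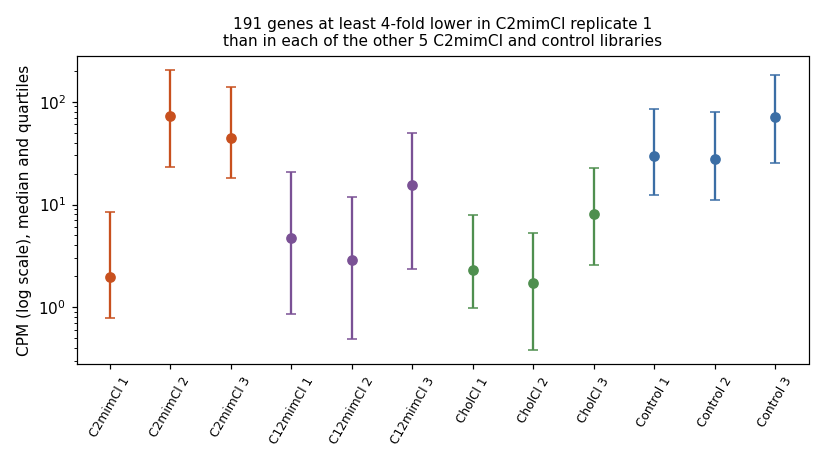
Median (point) and quartiles (bars) of CPM on a log axis in each of the 12 libraries, over the 191 genes at least 4-fold lower in C2mimCl replicate 1 than in each of the other 5 C2mimCl and control libraries. The median is 1.99 CPM in C2mimCl replicate 1, fixed low by the choice of genes, between 1.74 and 15.5 CPM in the C12mimCl and CholCl libraries, and between 27.7 and 72.7 CPM in the remaining C2mimCl and control libraries. The choice also held these remaining libraries high, so their gap from the other salts is set in part by it.

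The 27 genes high in replicate 1 had a median of 116 CPM there, against 11.6 and 15.97 CPM in replicates 2 and 3 and 9.02, 10.2 and 4.11 CPM in controls. Dapma7bEVm000873 stood out the most, with 6590 reads in replicate 1, 309 and 329 in replicates 2 and 3, and 76, 86 and 31 in controls, a gap of 14.1-fold to the next library. It belonged to the second list, since it was called only without replicate 1 (log2 fold change 2.63, SE 0.48, edgeR quasi-likelihood, adjusted p = 0.0077). With replicate 1 the log2 fold change was 5.14 (SE 1.11, edgeR quasi-likelihood, adjusted p = 0.055). Dapma7bEVm007313 had 1922 reads in replicate 1, 173 and 190 in replicates 2 and 3, and 114, 107 and 52 in controls, and was not called with or without replicate 1 (edgeR, adjusted p = 0.092 and 0.051). The next was Dapma7bEVm004588, given above among the largest rises.

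Called genes were found at each level of abundance. The first list held 0.353% of the 1702 genes with a mean under 1 CPM over the 6 libraries, 1.10% of those at 1 to 10 CPM, 1.78% at 10 to 100 CPM and 2.20% of the 1640 genes over 100 CPM. For the third list these shares were 4.11%, 8.62%, 9.56% and 11.3%. Both grew with abundance, as did the number of reads behind each gene.

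None of the 5 transcripts with most C2mimCl reads was called by edgeR with TMM scaling, the filter on low counts and all 3 libraries (0 of 5, where 1.43% of all genes were). DESeq2 called Dapma7bEVm020394 and Dapma7bEVm009808, and limma-voom with quality weights called 4 of the 5. Dapma7bEVm011496 took 7.07%, 12.4% and 10.5% of gene reads in C2mimCl replicates 1, 2 and 3, against 5.69%, 8.52% and 8.45% in controls, and the groups overlapped. Dapma7bEVm015522 took 2.52%, 2.34% and 2.69% after C2mimCl, against 1.45%, 2.09% and 1.90% in controls, without overlap but not called (log2 fold change 0.55, SE 0.19, edgeR quasi-likelihood, adjusted p = 0.16). Dapma7bEVm020394 took 1.67%, 1.64% and 1.94% after C2mimCl, against 0.798%, 1.08% and 1.04% in controls. With replicate 1 its log2 difference was 0.93 (edgeR, adjusted p = 0.058), and it passed the test under upper-quartile scaling, without the filter on low counts, with DESeq2 and with limma-voom. Without replicate 1 it rose by 1.03 on the log2 scale (SE 0.22, edgeR quasi-likelihood, adjusted p = 0.013). Dapma7bEVm018399 and Dapma7bEVm009808, the next by share, had log2 fold changes of 0.09 and 0.33 (edgeR, adjusted p = 0.86 and 0.18).

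Finally, each salt's own values against the same 3 control libraries were set side by side for the 3 lists. The shared controls tie these values together, so they are given as levels of change only. Among the 123 higher genes of the first list, the median log2 fold change was 1.17 after C2mimCl, -0.03 after C12mimCl and 0.75 after CholCl. Among its 104 lower genes it was -1.66 after C2mimCl, 0.10 after C12mimCl and -1.73 after CholCl. For the third list, with C2mimCl taken without replicate 1, the medians were 0.83, -0.71 and 0.49 for the 512 higher genes, in the same order of salts. They were -1.62, 0.64 and -1.38 for the 886 lower genes. In the second list they were 0.72, 0.05 and 0.60 for the 295 higher genes and -1.54, 0.54 and -1.42 for the 539 lower genes. Over all genes tested the medians were 0.01 for C2mimCl (-0.02 without replicate 1), 0.03 for C12mimCl and -0.09 for CholCl. The median of C12mimCl lay near its all-gene value in the first list and among the higher genes of the second, and on the opposite side from C2mimCl among the lower genes of the second and in the third.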

How the data were processed

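RNA from pools of 90 whole animals was sequenced in 12 libraries with a stranded mRNA kit and 150 bp paired-end reads, per the labels' protocols. The deposited files hold raw read counts per gene, 46334 genes and 5 summary rows per library. Trimmomatic 0.39, STAR 2.7.3a and HTSeq are named in the submitters' processing notes. The sources used here do not give the genome build, annotation or strand setting, so counts of antisense, overlapping or near-identical genes are uncertain. Reads assigned to no gene (5.25% to 10.1% of a library) and reads without a unique position (7.79% to 10.0%) stayed out of all tests.

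The raw counts entered edgeR 4.0.16 under R 4.3.3. Its expression filter (minimum count 10, minimum total 15) left 15847 genes with 99.9% of gene reads. TMM factors and a robust quasi-likelihood fit with 1 mean per group used all 12 libraries, or 11 without C2mimCl replicate 1 on the same genes. A gene was called where its Benjamini-Hochberg adjusted p, over all genes tested, was under 0.05. Standard errors were derived from each fold change and the F value. Log2 CPM for descriptions has a pseudocount of 0.5 CPM. Counting intervals are 95% exact conditional intervals and cover counting error only, since reads carry no molecular identifiers. The procedure was checked on simulated counts. No replicate was made to stand apart in them, so the check does not cover a case like C2mimCl replicate 1. Replicates are separate vessels, and each pair of replicate libraries differed by more than sampling noise (chi-square per degree of freedom at least 16.4).

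Named genes were those called in all 7 fits, the largest changes among genes changed in all 3 C2mimCl libraries (4 each way) and in replicates 2 and 3 only (5 each way), both at a mean CPM of 2 or more, the genes in which replicate 1 lay farthest from the other 5 libraries (3 each way), and the 5 with the most C2mimCl reads. Dapma7bEVm024815 was added after its values were seen. The members, lists and settings were chosen with earlier results of these data known. Alternatives were RLE and upper-quartile scaling, 2 other filters, DESeq2 1.42.0, limma 3.58.1 (voom, with and without library quality weights), the 6 libraries alone, a replicate block, the share of reads in no gene as a covariate, a 2-fold threshold, and leaving out each library.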

Additional observations from a re-analysis of the deposited data

How the results depend on the processing

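The number of genes called with all 3 C2mimCl libraries, 227, stayed within 1.5 times under both other scalings, both other filters and limma-voom (185 to 262), and so did the list changed in all 3 libraries. It was 1049 with DESeq2 (1021 of them beyond the controls in all 3 libraries), 4713 (1641) with quality weights in limma-voom, 3 (3) in a fit of the 6 libraries alone, 627 (508) once the share of reads in no gene was a covariate and 13 (13) against a 2-fold threshold. Leaving out 1 library gave 23 to 2459 calls, and 23 to 90 genes in that list over the 3 controls. With only the 6 libraries, 1623 genes had an unadjusted p below 0.05.

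Without C2mimCl replicate 1, the 2459 calls became 4875 with quality weights, 1362 without the other salts, 1342 with that covariate, 247 against a 2-fold threshold, and 1555 to 3994 without a control library. The 1398 genes changed in replicates 2 and 3 only became 2746, 750, 488 and 94 in the same 4 settings, and 711 to 2029 without a control library. Falls were 63.4% of that list and 45.3% without control replicate 3. The 834 genes of the second list became 378 with DESeq2, 23 with quality weights, 424 with the covariate, 140 against a 2-fold threshold, and 821 to 1875 without a control library. The cause of these moves was not tested.

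The replicate numbers were not shown to pair the vessels, since deviations of same-numbered C2mimCl and control libraries correlated at 0.28, -0.52 and 0.59 across genes. C2mimCl replicate 1 correlated best with control replicate 2, and replicates 2 and 3 with control replicate 3. With the replicate block 208 genes were called, 147 of them among the 227. Dapma7bEVm004588 and Dapma7bEVm018634 lost their calls under it (log2 fold changes 4.81 and 3.33), as did Dapma7bEVm006468 without C2mimCl replicate 1 (2.57). No gene called in all 7 fits, and none of the other largest changes, changed sign. The 2-fold threshold removed 8 of the 19 calls. Dapma7bEVm018399, which was not called, had a log2 fold change of 0.087, which was -0.043 without control replicate 3 and at most 0.22 without another library. The counts of genes apart in replicate 1 stayed within 1.5 times without TMM factors and at a mean of 10 CPM (165 to 191 below, 20 to 34 above). Depth limits the near-silent genes most, where 1 to 3 reads leave folds uncertain several times over.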
